A study of Homo sapiens with 9 samples.

Results

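The 10 genes described here are HAND1 and related basic helix-loop-helix (bHLH) transcription factors with their partners and inhibitors. They are the HAND and Twist class factors HAND1, HAND2, TWIST1 and TCF21, the E proteins TCF3, TCF4 and TCF12, and the inhibitors ID1, ID2 and ID3. They were chosen by name, with earlier results of these data known, and all 10 are among the 23610 rows of the expression table. The table holds polyA RNA from GIST-T1, an established human cell line of a gastrointestinal stromal tumour (GIST). There are 3 libraries with HAND1 sgRNA, 3 with ETV1 sgRNA and 3 controls with Luciferase sgRNA. The labels tag the sgRNAs as knockdown and do not give their sequences, the effector, the time, or whether pools or clones were used. Whether replicates were grown as separate cultures is also not told, so p-values measure only the spread between libraries, which may be technical.

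bHLH factors bind DNA as dimers at the E-box, a short motif with the letters CANNTG. HAND, Twist and TCF21 proteins are tissue-restricted and usually pair with a broadly expressed E protein, although HAND and Twist proteins can also pair with themselves or each other. ID proteins have the dimerization domain without the DNA-binding basic region, so they sequester E proteins, and their genes are classic targets of BMP signalling through SMAD factors. In the embryo HAND1 and HAND2 act in heart and gut mesenchyme, HAND2 also in limb and enteric neurons, and TCF21 marks visceral mesenchyme. The transcript levels below say nothing of which dimers formed.

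The libraries had between 11283 and 11345 genes at 1 FPKM or more (fragments per kilobase of transcript, scaled to the mapped fragments of the library), and upper quartiles between 12.2 and 12.4 FPKM. Luciferase sgRNA replicate 3 had the highest summed FPKM, 538689 against 451286 to 479939 in the other 8 libraries, and its short transcripts were high. All 8 markers of GIST and interstitial cells of Cajal had a mean of at least 1 FPKM, with KIT at 209 ± 11.3 FPKM and CD34 at 1680 ± 30.5 FPKM in the controls (SD, n = 3). With HAND1 sgRNA limma called 4 of these 8 lower and 0 higher against the controls: KIT at 160 FPKM (log2 −0.38, adjusted p = 0.00336, but 0.129 with quantile normalization), DUSP6 at 77.4 against 181, GPR20 at 45.1 against 81.6 and PRKCQ at 3.67 against 6.84 FPKM. Over all genes tested in that comparison, 3.67% were called higher and 2.93% lower. Means below 1 FPKM were found for 9 of 10 neuronal and glial markers, 5 of 8 epithelial markers, 8 of 9 blood and endothelial markers and 3 of 7 smooth muscle markers. The neuronal genes ELAVL3, ELAVL4 and SNAP25 and the epithelial genes KRT19 and KRT20 were at 0 in all libraries. The epithelial list still summed to 228 to 266 FPKM in the controls and 205 to 221 with HAND1 sgRNA. Nearly all of it came from KRT18, at 236 ± 21.3 FPKM in the controls, and 0 of its 3 tested genes were called with HAND1 sgRNA. Summed levels of the smooth muscle list were at 146 to 151 FPKM in the controls, 168 to 177 with ETV1 sgRNA and 129 to 135 with HAND1 sgRNA, nearly all of it from ACTA2 and SMTN. With HAND1 sgRNA against the controls, 1 of its 4 tested genes was called higher, TAGLN (6.91 against 2.38 FPKM, limma adjusted p = 0.00193), and 1 lower, SMTN (76.1 against 92.4 FPKM, adjusted p = 0.0160, 0.0149 to 0.103 over its alternatives), with a list median of 0.24. SMTN was no longer called with quantile normalization or without Luciferase sgRNA replicate 1 or 2 or HAND1 sgRNA replicate 2. The neuronal and glial list summed to 52.2 to 59.9 FPKM in the controls and 60.5 to 64.8 with HAND1 sgRNA, nearly all of it from TUBB3. The blood and endothelial list had 1 tested gene, CD68, at 6.13 against 4.06 FPKM with HAND1 sgRNA (limma adjusted p = 0.0466), a call kept under 9 of 17 alternatives (adjusted p 0.0295 to 0.151) and lost without any 1 of Luciferase sgRNA replicates 1 and 3, ETV1 sgRNA replicate 1 and the 3 HAND1 sgRNA libraries. The part of these shifts in the results below was not tested. The ETV1 transcript was at 39.7 ± 2.42 FPKM in the controls and at 11.4 ± 0.571 FPKM with its own sgRNA.

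Promoter sequence is shown for HAND1, the targeted gene, and for the 3 ID genes, because ID1 was the other member whose transcript fell with HAND1 sgRNA while ID2 and ID3 were not called. Windows are the 250 bases before the start site in RefSeq (GRCh38.p14), 5′ to 3′ on the gene's strand. Windows matched by symbol for 9 of the 10 genes. The 4 windows are chr5:154478228-154478477 for HAND1 and chr1:23559502-23559751 for ID3, both on the minus strand, and chr20:31605039-31605288 for ID1 and chr2:8681806-8682055 for ID2, both on the plus strand. Capitals mark E-boxes (CANNTG), CCAAT boxes (CCAAT) and TATA boxes (TATAA), each searched on both strands.
HAND1: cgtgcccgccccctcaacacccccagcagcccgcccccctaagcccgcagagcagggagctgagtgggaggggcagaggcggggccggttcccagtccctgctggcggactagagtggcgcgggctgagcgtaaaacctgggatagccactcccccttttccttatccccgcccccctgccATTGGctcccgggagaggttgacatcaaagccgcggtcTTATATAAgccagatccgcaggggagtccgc
ID1: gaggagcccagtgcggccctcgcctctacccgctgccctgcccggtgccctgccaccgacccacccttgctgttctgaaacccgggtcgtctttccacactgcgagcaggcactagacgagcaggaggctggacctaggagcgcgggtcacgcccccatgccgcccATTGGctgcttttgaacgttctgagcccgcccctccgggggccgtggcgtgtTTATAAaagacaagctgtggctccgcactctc
ID2: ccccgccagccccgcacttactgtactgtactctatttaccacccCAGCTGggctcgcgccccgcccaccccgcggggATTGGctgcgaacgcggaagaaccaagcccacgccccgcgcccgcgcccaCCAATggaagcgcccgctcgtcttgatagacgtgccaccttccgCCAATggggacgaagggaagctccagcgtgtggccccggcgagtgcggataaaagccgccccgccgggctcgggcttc
ID3: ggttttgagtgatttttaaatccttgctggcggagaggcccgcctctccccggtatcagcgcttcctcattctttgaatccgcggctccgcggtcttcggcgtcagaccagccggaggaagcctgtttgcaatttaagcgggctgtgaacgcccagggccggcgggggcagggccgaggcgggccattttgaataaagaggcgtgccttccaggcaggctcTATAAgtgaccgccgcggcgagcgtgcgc
The HAND1 and ID1 windows share a layout of 1 CCAAT box on the opposite strand (ATTGG, starting at −69 and −84 from the start site) and TATAA starting at −28 and −31, with no E-box. ID3 has TATAA at −29 and neither of the other motifs. ID2 has 3 CCAAT boxes and 1 E-box, CAGCTG at −205, and no TATAA. Over all 35116 windows of this table, 61.8% hold an E-box, 32% a CCAAT box, 18.9% TATAA and 14% CAGCTG. How many windows have the layout shared by HAND1 and ID1 was not counted. The TCF21 window holds 3 E-boxes, at −243, −206 and −172, and the HAND2 window 1, at −242. GGCGCC, a motif that SMAD factors bind, is in 16.4% of windows and in none of these 4; CCGGAA, an ETS motif, is in 14.5% and also in none of the 4. These matches describe letters in a window and are not bound sites. Sequence outside the 250 bases was not searched, so a motif absent here may lie elsewhere at the gene.

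In the control libraries TCF21 had the highest level of the 10 genes on the FPKM scale, 324 ± 12.5 FPKM (SD, n = 3). ID1 followed at 119 ± 14.2 FPKM and HAND1 at 114 ± 1.12 FPKM, and the library values of that pair overlapped. Below them came TCF3 at 72.9 ± 1.37, TCF12 at 56.3 ± 4.99, HAND2 at 37.3 ± 2.85, TCF4 at 19.4 ± 0.995 and TWIST1 at 7.21 ± 0.689 FPKM, without overlap between neighbours. ID3 (2.38 ± 1.04 FPKM) and ID2 (1.69 ± 0.387 FPKM) were lowest and overlapped each other. All 10 genes passed the minimum mean of 1 FPKM for testing, and in the controls they ranked between 206 (TCF21) and 10590 (ID2) of 11348 genes.

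**Figure D1:**
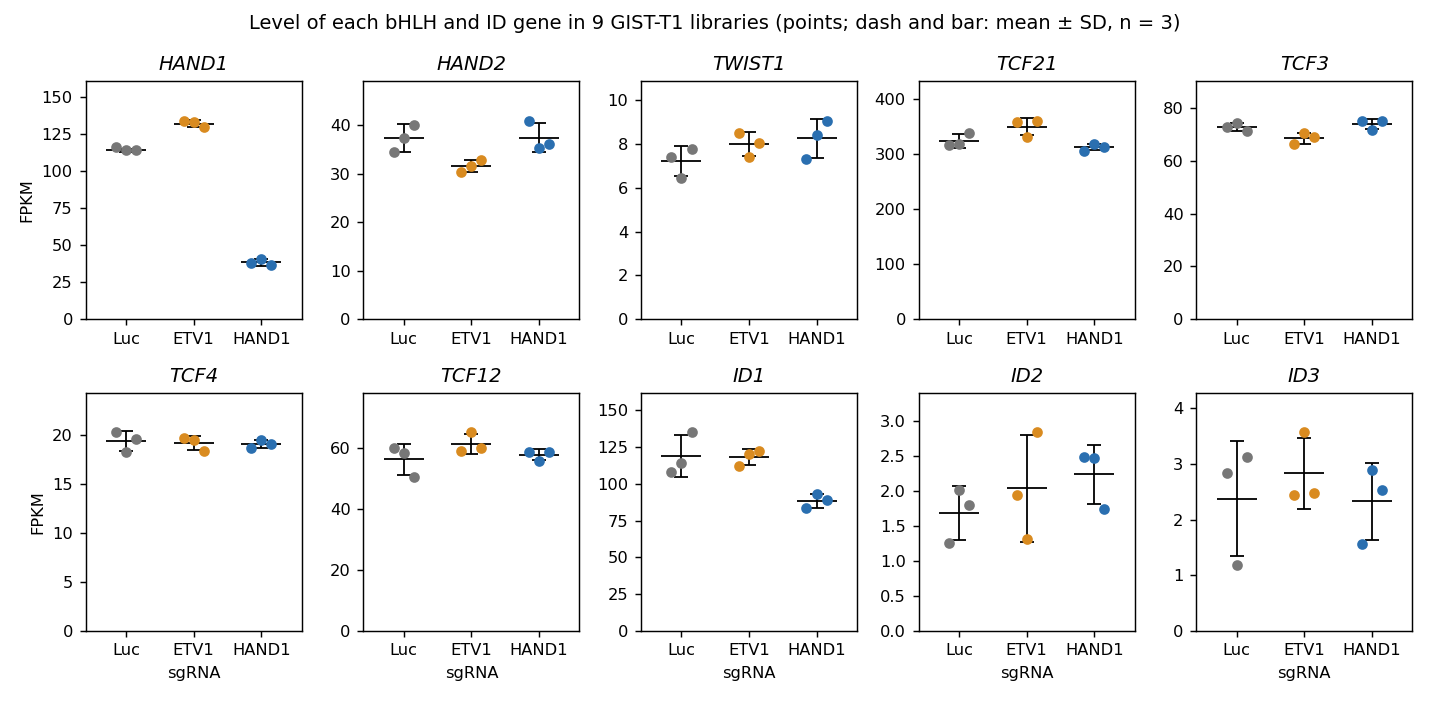
FPKM of each of the 10 genes (y axis from 0, own scale per panel) by sgRNA (x axis); points are libraries, the dash and bar are the mean ± SD of 3. HAND1 lies at 36.5 to 40.8 FPKM with its own sgRNA against 114 to 116 in the controls, and ID1 at 83.7 to 93.3 against 108 to 135.

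HAND1, the targeted factor, was at 116, 114 and 114 FPKM in Luciferase sgRNA replicates 1 to 3. With HAND1 sgRNA it was at 37.6, 40.8 and 36.5 FPKM, and with ETV1 sgRNA at 134, 133 and 130 FPKM. Each group was tight and no values of any pair of groups overlapped. The mean fell by 66.5% with HAND1 sgRNA. In bulk RNA, fewer cells with the transcript and less of it per cell cannot be told apart. On the scale log2(FPKM + 1) the change was −1.55 (SE 0.052, limma adjusted p = 2.07e-07, Benjamini-Hochberg over all genes tested). Against ETV1 sgRNA libraries it was −1.76 (SE 0.052, limma adjusted p = 9.46e-08). The 3 comparisons share libraries and are not independent.

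With ETV1 sgRNA, HAND1 was 15.8% above the control mean, a log2 difference of 0.21 with a 95% interval of 0.10 to 0.32. This difference had an unadjusted limma p of 0.00221 and did not pass adjustment (adjusted p = 0.244, 0.209 to 0.539 over the 17 alternatives), although all 3 libraries lay above all 3 controls.

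HAND2, the paralogue of HAND1, was at 34.4, 37.3 and 40.1 FPKM in the controls and at 40.9, 35.3 and 36.1 FPKM with HAND1 sgRNA. These values overlapped, and the limma log2 difference was 0.01 (95% interval −0.16 to 0.17, adjusted p = 0.979). With ETV1 sgRNA, HAND2 was at 30.4, 31.5 and 32.9 FPKM, all below the controls (log2 −0.23, interval −0.39 to −0.07, limma adjusted p = 0.409). The HAND1 and HAND2 values thus stood on opposite sides of the controls with ETV1 sgRNA, neither of them called. The level of HAND1 relative to HAND2 was 3.08 ± 0.263 in the controls, 4.20 ± 0.229 with ETV1 sgRNA and 1.03 ± 0.119 with HAND1 sgRNA (SD, n = 3), so the HAND paralogues overlapped in level only with HAND1 sgRNA. In GENCODE 29, HAND2 shares 867 exon bases with the antisense gene HAND2-AS1, and in a non-stranded library reads of the pair cannot be told apart.

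TCF21, a bHLH factor of visceral mesenchyme, was at 316, 318 and 339 FPKM in the controls, at 358, 332 and 361 FPKM with ETV1 sgRNA, and at 306, 318 and 314 FPKM with HAND1 sgRNA. The controls overlapped both other groups, and neither difference was called: log2 0.11 with ETV1 sgRNA (95% interval −0.02 to 0.24, limma adjusted p = 0.679) and −0.05 with HAND1 sgRNA (−0.18 to 0.07, adjusted p = 0.666). The libraries with HAND1 sgRNA lay below all those with ETV1 sgRNA, by a log2 difference of −0.16 that was not called (limma adjusted p = 0.182). TCF21 shares 1383 exon bases with the antisense gene TARID in GENCODE 29, so its level is uncertain in the same way.

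TWIST1, a factor of mesenchymal identity, lay between 6.45 and 9.07 FPKM in all 9 libraries, and every pair of groups overlapped. Its mean was 7.21 ± 0.689 FPKM in the controls, 7.99 ± 0.550 with ETV1 sgRNA and 8.27 ± 0.893 with HAND1 sgRNA. The log2 difference with HAND1 sgRNA was 0.17 (95% interval −0.04 to 0.39, limma adjusted p = 0.349).

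The E proteins, the shared dimer partners, were not called in any comparison. TCF3, which encodes E12 and E47, was at 72.8, 74.3 and 71.5 FPKM in the controls, 66.3, 70.5 and 69.2 FPKM with ETV1 sgRNA and 75.3, 71.8 and 75.3 FPKM with HAND1 sgRNA. The ETV1 sgRNA values lay below both other groups, and the mean differed from that of the controls by −5.81% (log2 −0.09, 95% interval −0.19 to 0.02, limma adjusted p = 0.704). TCF12, which encodes HEB, was at 59.9, 58.5 and 50.6 FPKM in the controls, 59.2, 65.2 and 59.9 FPKM with ETV1 sgRNA and 58.9, 55.7 and 58.7 FPKM with HAND1 sgRNA. Its lowest value was in Luciferase sgRNA replicate 3, and the controls overlapped both other groups. TCF4, which encodes E2-2, lay between 18.3 and 20.3 FPKM in all 9 libraries. With HAND1 sgRNA the 95% intervals of the log2 difference from the controls were −0.08 to 0.13 for TCF3, −0.15 to 0.11 for TCF4 and −0.12 to 0.20 for TCF12 (limma adjusted p = 0.826, 0.883 and 0.806).

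ID1, an inhibitor of E proteins, was lower with HAND1 sgRNA. It was at 108, 114 and 135 FPKM in the controls, 112, 120 and 122 FPKM with ETV1 sgRNA, and 83.7, 93.3 and 88.7 FPKM with HAND1 sgRNA. The 3 HAND1 sgRNA libraries lay below all 6 others, while the controls and the ETV1 sgRNA libraries overlapped. ID1 fell by 25.6% from the control mean (log2 −0.42, SE 0.082, limma adjusted p = 0.0130), and it was lower than with ETV1 sgRNA by about the same amount (log2 −0.41, SE 0.082, adjusted p = 0.0199). With ETV1 sgRNA the log2 difference from the controls was −0.01 (95% interval −0.19 to 0.18, limma adjusted p = 0.991).

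The ID1 call depended on single libraries, and over its 17 alternatives the adjusted p ran from 0.00223 to 0.0590 against the controls and from 0.00169 to 0.0893 against ETV1 sgRNA. Against the controls limma gave an adjusted p of 0.0590 without HAND1 sgRNA replicate 1 (log2 −0.38) and 0.0519 without HAND1 sgRNA replicate 3 (log2 −0.42). Against ETV1 sgRNA the adjusted p was 0.0776 and 0.0843 without ETV1 sgRNA replicates 2 and 3, and 0.0893 and 0.0727 without HAND1 sgRNA replicates 1 and 3. The highest ID1 value was in Luciferase sgRNA replicate 3. There ID1 lay 0.28 (log2) above the mean of the other controls, and 688 genes with a longest coding transcript of at least 1000 and under 1500 nt, the class of ID1 (1233 nt), lay 0.24 above at the median. Without that library ID1 was still called (log2 −0.32, adjusted p = 0.0114).

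ID2 and ID3 were near the lower limit of the tested range and scattered widely. ID2 was at 1.26, 2.01 and 1.8 FPKM in the controls, 1.95, 1.32 and 2.84 FPKM with ETV1 sgRNA and 2.49, 2.47 and 1.74 FPKM with HAND1 sgRNA. ID3 was at 2.84, 1.19 and 3.12 FPKM in the controls, 2.44, 3.57 and 2.47 FPKM with ETV1 sgRNA and 1.56, 2.90 and 2.53 FPKM with HAND1 sgRNA. All groups overlapped for these inhibitors. With HAND1 sgRNA the limma log2 difference was 0.27 for ID2 (95% interval −0.16 to 0.69, adjusted p = 0.483) and 0.01 for ID3 (−0.54 to 0.56, adjusted p = 0.989). On the scale log2(FPKM + 1) the ID3 interval includes a fall as large as that of ID1, and the ID2 interval does not. The added 1 shrinks changes at such low levels but hardly at the level of ID1, so these sizes are not alike. Differences between the ID genes were not tested. ID4, the remaining ID gene, was listed at 0 in 8 of 9 libraries.

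Of the 10 genes, limma called 2 with HAND1 sgRNA against the controls, HAND1 and ID1, both lower, where 6.6% of all 11348 genes were called, 3.67% higher and 2.93% lower. Because HAND1 was the target, 1 of 9 other members was called. Against ETV1 sgRNA the same 2 were called lower, beside 4.05% of all genes, 2.01% higher and 2.04% lower. With ETV1 sgRNA against the controls limma called 0 of 10 members, beside 0.203% of all genes, 0.141% higher and 0.0617% lower. An unadjusted limma p under 0.05 was found for 2 members (HAND1 and HAND2), and the share of all genes at that level was not counted. In that comparison 3 of 10 members had groups that did not overlap (HAND1 higher, HAND2 and TCF3 lower), beside 12.9% of all genes, 6.88% higher and 6% lower. With HAND1 sgRNA against the controls these were 2 members, HAND1 and ID1, both lower, beside 25.7% of all genes, 13% higher and 12.7% lower. Between the sgRNAs of HAND1 and ETV1 the groups of 6 members did not overlap, HAND2 and TCF3 higher and HAND1, TCF21, TCF12 and ID1 lower with HAND1 sgRNA, beside 22.4% of all genes, 10.9% higher and 11.5% lower.

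**Figure D2:**
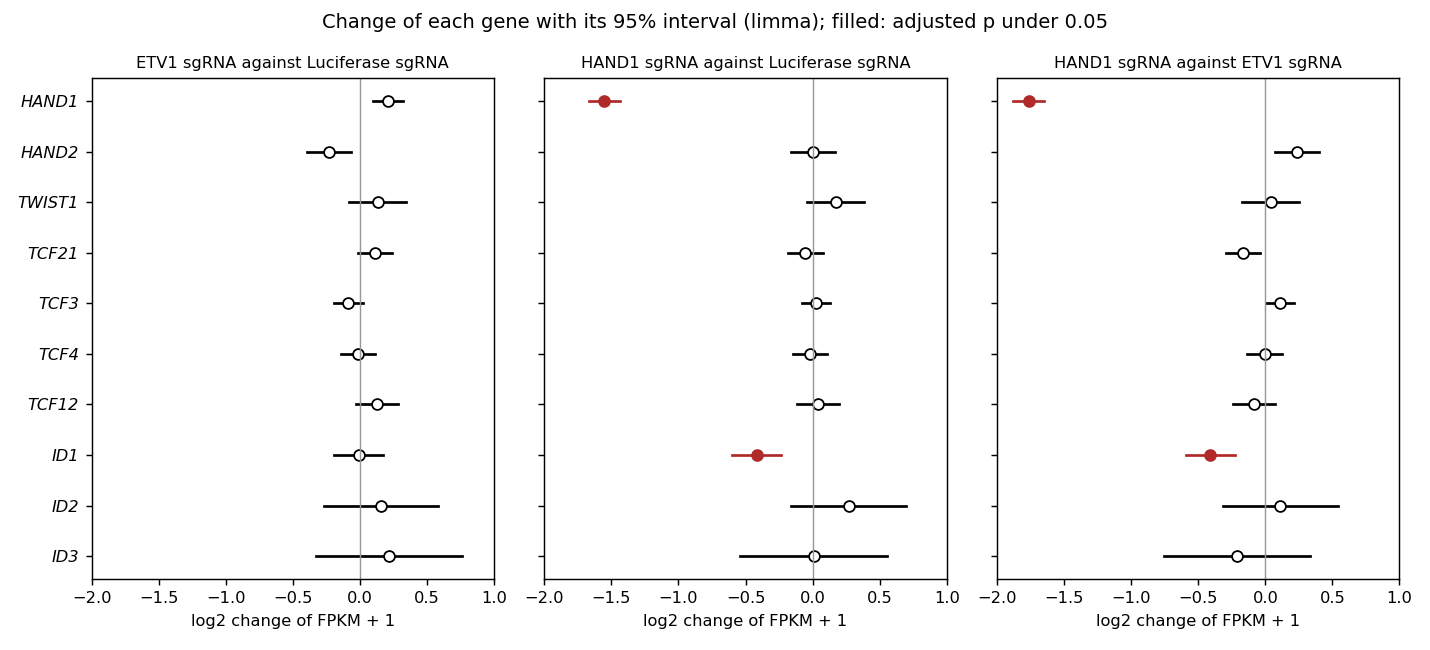
Change of log2(FPKM + 1) (x axis) of each gene (y axis) in 3 comparisons, with 95% intervals from limma; filled red points have an adjusted p under 0.05. HAND1 and ID1 are filled in both comparisons of HAND1 sgRNA, at −1.55 and −0.42 against the controls, and no gene is filled with ETV1 sgRNA against Luciferase sgRNA.

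Summed by class, the transcripts of the 3 E proteins were nearly level across the groups, at 149 ± 6.02 FPKM in the controls, 149 ± 5.21 with ETV1 sgRNA and 151 ± 3.42 with HAND1 sgRNA (SD, n = 3). TCF3 made up between 45.4% and 50.5% of that sum in every library. The ID sum was at 112, 117 and 140 FPKM in the controls, at 116, 125 and 128 with ETV1 sgRNA and at 87.8, 98.6 and 92.9 with HAND1 sgRNA, and ID1 made up between 94.6% and 97.3% of it. The ratio of the ID sum to the E protein sum was 0.832 ± 0.137 in the controls, 0.824 ± 0.0365 with ETV1 sgRNA and 0.617 ± 0.0491 with HAND1 sgRNA. The HAND1 sgRNA libraries, at 0.574, 0.671 and 0.607, lay below the other 6, whose lowest was 0.734. The highest control ratio, 0.988, was in Luciferase sgRNA replicate 3, whose short transcripts were high, and without that library the control mean was 0.754. Genes with a longest coding transcript of at least 4000 nt, the class of the E proteins, had a median log2 difference of −0.07 from the other controls there. The sum of HAND1, HAND2, TWIST1 and TCF21 was 483 ± 15, 522 ± 15.3 and 397 ± 5.41 FPKM in the same order of groups, and HAND1 made up between 22.7% and 26.4% of it in the control and ETV1 sgRNA libraries and between 9.23% and 10.1% with HAND1 sgRNA. These sums are descriptions without a test, and transcript sums do not give protein amounts.

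**Figure D3:**
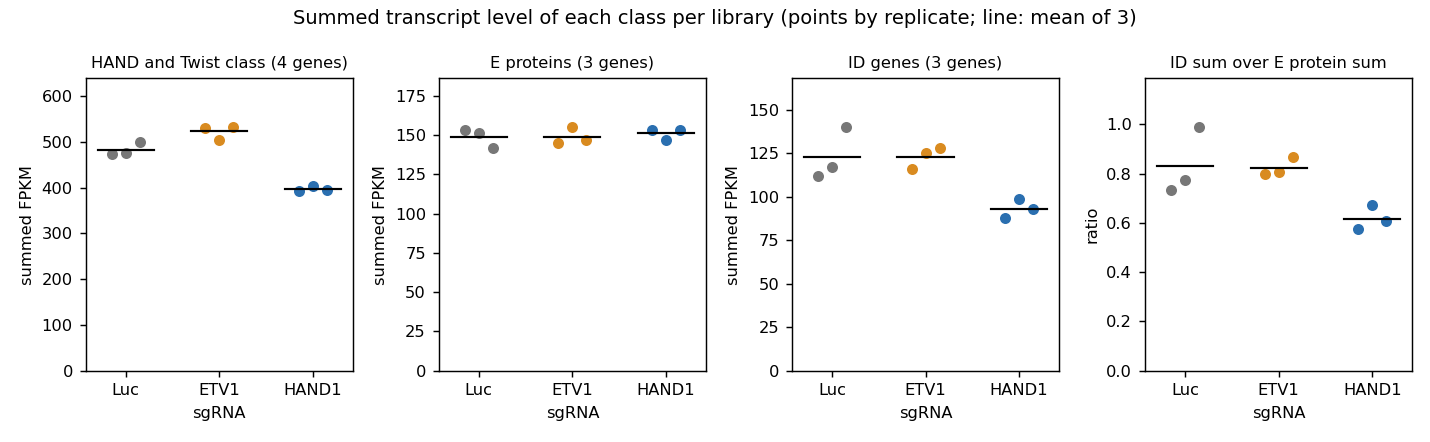
Summed FPKM of the HAND and Twist class, the E proteins and the ID genes, and the ratio of the ID sum to the E protein sum (y axes from 0), by sgRNA (x axis); points are libraries and lines the mean of 3. The E protein sums overlap between the groups, while the ID sums with HAND1 sgRNA, 87.8 to 98.6, lie below all others.

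Among 102 bHLH genes found in the table, 48 reached a mean of 1 FPKM and 20 were at 0 in all 9 libraries. In the controls TCF21 ranked 1, HAND1 3, TCF3 4 and TCF12 6 within this family; MYCN, a leucine zipper bHLH factor of the MYC family, ranked 2 at 134 ± 2.25 FPKM. Of 41 other class II factors (tissue-restricted partners of E proteins) only TWIST2, MSC and MESP1 passed the minimum. MSC, musculin, a repressor related to TCF21, rose from 19.9 ± 0.681 to 26.1 ± 1.37 FPKM with HAND1 sgRNA (log2 0.38, limma adjusted p = 0.00819). The list had 1 of 3 tested genes higher and 0 lower, with a median of 0.36 against −0.01 over all genes tested. Of all those genes, 3.67% were called higher and 2.93% lower.

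HES1, a bHLH repressor of the Notch pathway, was at 52.6, 52.0 and 59.6 FPKM in the controls, 40.2, 43.0 and 46.9 FPKM with ETV1 sgRNA and 26.4, 31.1 and 29.2 FPKM with HAND1 sgRNA. It fell with HAND1 sgRNA (log2 −0.90, limma adjusted p = 1.18e-04) and was also lower than with ETV1 sgRNA (−0.57, adjusted p = 0.00291). Of 7 tested HES, HEY and BHLHE40 class repressors HES1 alone was called with HAND1 sgRNA (median −0.22, against −0.01 over all genes tested). An unadjusted limma p under 0.05 was found for 4, of which HEY1 was higher and the others lower. The share of all genes at that unadjusted p was not counted. Among 31 tested leucine zipper and PAS factors, 1 fell and 0 rose with HAND1 sgRNA (all genes: 2.93% lower, 3.67% higher). That gene was MYCN, at 77.5 ± 4.56 FPKM (log2 −0.78, limma adjusted p = 2.73e-05; list median 0.03). MYCN also fell with ETV1 sgRNA, to 97.2 ± 3.22 FPKM (−0.46, limma adjusted p = 0.00693, 0.00350 to 0.0640 over its alternatives), a call lost without ETV1 sgRNA replicate 1. With HAND1 sgRNA it was lower than with ETV1 sgRNA (−0.33, limma adjusted p = 0.00818).

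**Figure D4:**
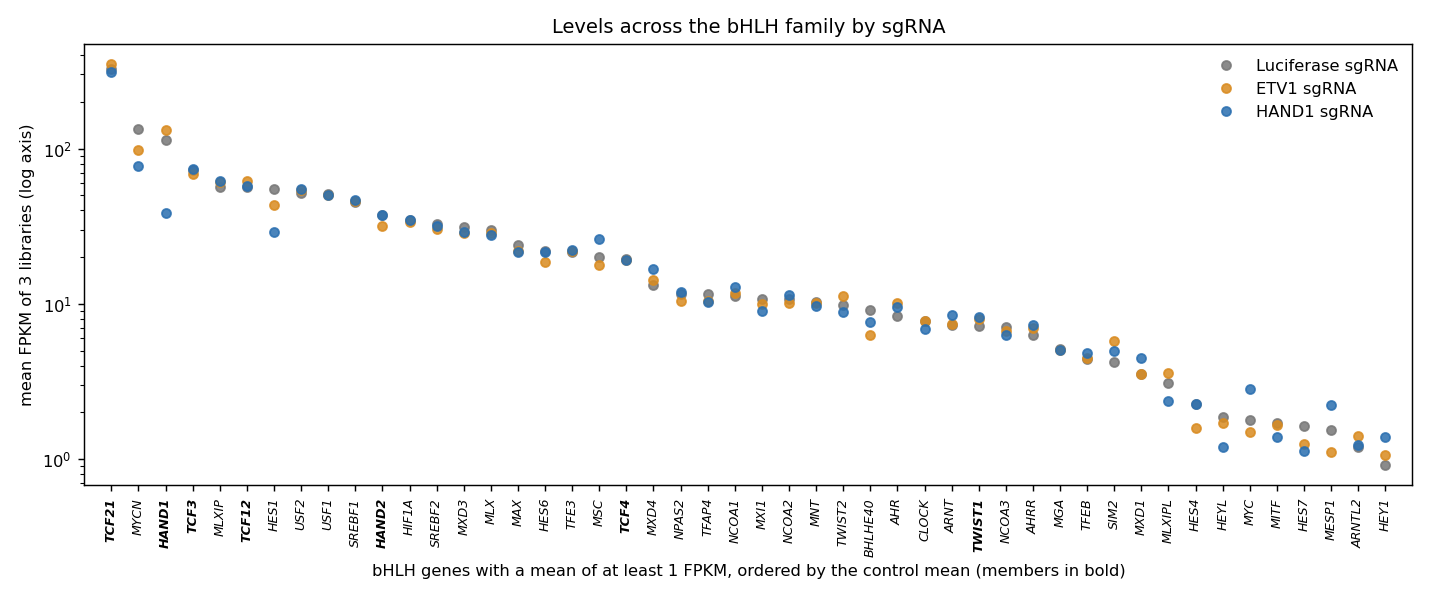
Mean FPKM of 3 libraries (log y axis) of the 48 bHLH genes that reached a mean of 1 FPKM, ordered along the x axis by the control mean and coloured by sgRNA, members in bold. TCF21 is at the top at 324 FPKM in the controls, and the blue HAND1 sgRNA point of HAND1 drops from 114 to 38.3 FPKM.

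Among cofactors of E and ID proteins, limma called 3 of 11 tested genes higher and 2 lower with HAND1 sgRNA. Over all genes tested, 3.67% were called higher and 2.93% lower. The list median was 0.07, against −0.01 over all genes tested. LDB2, a LIM-domain-binding bridging factor, rose from 14.9 ± 0.973 to 23.3 ± 1.78 FPKM (log2 0.61, adjusted p = 7.53e-04), and RUNX1T1, an ETO family co-repressor that E proteins bind, from 2.13 ± 0.128 to 3.76 ± 0.379 FPKM (0.60, adjusted p = 0.00485). MDFI, an inhibitor of bHLH factors that retains them outside the nucleus, fell from 106 ± 13.6 to 74.8 ± 4.62 FPKM (−0.49, adjusted p = 0.00636). Its relative MDFIC rose by 0.33 (log2, limma adjusted p = 0.0107); leaving out HAND1 sgRNA replicate 3 ended that call (0.0553, from 0.00355 over its alternatives). LMO2, a LIM-only bridge between bHLH dimers and LDB proteins, was at 79.4, 78.5 and 101 FPKM in the controls, 88.2, 87.6 and 91.0 FPKM with ETV1 sgRNA and 58.0, 65.6 and 66.6 FPKM with HAND1 sgRNA (−0.43, limma adjusted p = 0.0212). The LMO2 call did not survive the omission of HAND1 sgRNA replicate 1 (adjusted p = 0.0841) or 2 (0.0528), no filter on low values (0.0509), or a fit of only the 2 groups compared (0.0634), and the lowest of its alternatives gave 0.00475. With ETV1 sgRNA against the controls limma called 0 of the 11, beside 0.203% of all genes tested. An unadjusted p under 0.05 was found for 3 of the 11 in that limma fit, and the share of all genes at that level was not counted.

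HAND cofactors and cardiac mesoderm factors had 10 of 16 genes tested, of which 1 rose and 0 fell with HAND1 sgRNA (limma, median −0.06). Over all genes tested, 3.67% were called higher and 2.93% lower. FHL2, a LIM-only protein known to bind HAND1, was at 398 ± 12.7 FPKM in the controls and 366 ± 8.87 FPKM with HAND1 sgRNA (log2 −0.12, adjusted p = 0.266). The gene that rose was MEF2A, a MADS-box factor of muscle genes (0.33, limma adjusted p = 0.0126), and its call was lost without HAND1 sgRNA replicate 2 (0.0552) or 3 (0.0558), with 0.0112 as the lowest of its alternatives. GATA4, a partner of HAND factors in the heart, was at 8.67 ± 0.171 and 8.21 ± 0.315 FPKM.

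Genes of the BMP pathway, which can control ID genes, moved in both directions with HAND1 sgRNA. TMEM100, a membrane protein induced by BMP signalling, was at 214, 234 and 244 FPKM in the controls, 228, 215 and 216 FPKM with ETV1 sgRNA and 80.8, 87.0 and 82.7 FPKM with HAND1 sgRNA (log2 −1.45, limma adjusted p = 7.78e-07). Of 7 tested BMP response genes 2 fell and 0 rose, TMEM100 and the decoy receptor BAMBI (median −0.39, against −0.01 over all genes tested). Of all those genes, 2.93% were called lower and 3.67% higher. BAMBI was at 1.56 ± 0.427 against 2.93 ± 0.362 FPKM (log2 −0.62, limma adjusted p = 0.0275). Omitting Luciferase sgRNA replicate 1 (0.0906) or 2 (0.0642), or HAND1 sgRNA replicate 1 (0.0985) or 3 (0.106), ended the BAMBI call, as did no filter (0.0557) and the replicate block (0.0630), and the lowest of its alternatives gave 0.0163. SMAD6, an inhibitory SMAD, was at 2.94 ± 1.21 against 4.4 ± 0.543 FPKM (limma adjusted p = 0.184). DLX5, a homeobox factor of the same list, was at 2.19, 2.26 and 3.66 FPKM against 1.99, 1.09 and 0.502 FPKM in the controls, higher without overlap and not called (log2 0.79, adjusted p = 0.0894).

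Of 15 tested BMP ligands, receptors and SMADs 4 rose and 1 fell with HAND1 sgRNA (limma, median 0.13). Over all genes tested, 3.67% were called higher and 2.93% lower. SMAD4, the common SMAD, was on this list but below the filter, at 0 in 5 of 9 libraries and at most 0.0169 FPKM. SMAD1 and SMAD5 averaged 7.73 and 24.6 FPKM over all libraries. Why SMAD4 was near 0 was not tested, and the activity of the BMP pathway was not measured. The ligand BMP4 rose to 189, 194 and 188 FPKM from 108, 114 and 114 FPKM in the controls (log2 0.76, limma adjusted p = 3.73e-05), and BMP7 rose from 1.86 ± 0.101 to 4.25 ± 0.437 FPKM (0.87, adjusted p = 5.09e-04). BMP2, another ligand, was lower, at 1.06 ± 0.376 against 2.28 ± 0.372 FPKM (−0.69, limma adjusted p = 0.0196), and omitting Luciferase sgRNA replicate 2 (0.0530) or 3 (0.0587), or HAND1 sgRNA replicate 2 (0.0730) or 3 (0.0782), ended that call, as did a fit of only the 2 groups compared (0.0513, with 0.0103 as the lowest of its alternatives). The ligand BMP5 rose from 34.5 ± 1.19 to 43.5 ± 2.16 FPKM (0.32, limma adjusted p = 0.0129, 0.00833 to 0.0635 over its alternatives), a call that needed each of Luciferase sgRNA replicate 2 and HAND1 sgRNA replicates 2 and 3. FST, a secreted inhibitor of activins and BMPs, was at 0.41, 0.839 and 0.59 FPKM in the controls and 2.42, 1.21 and 2 FPKM with HAND1 sgRNA (0.82, limma adjusted p = 0.0206, 0.0102 to 0.0820 over its alternatives); its call was lost without Luciferase sgRNA replicate 1, HAND1 sgRNA replicate 1 or 3, or with the replicate block. At such low levels the fold depends on the pseudocount: over the alternatives the log2 change ran from 0.43 to 1.15 for BMP7, from 0.30 to 0.79 for RUNX1T1, from 0.29 to 1.46 for FST, from −1.08 to −0.27 for BMP2 and from −0.89 to −0.27 for BAMBI. The ID1 transcript thus was lower with HAND1 sgRNA, where BMP4 and BMP7 were higher and TMEM100 and BMP2 were lower. With ETV1 sgRNA BMP4 was at 130, 136 and 148 FPKM, above all controls, and BMP2 at 1.59, 1.75 and 1.82 FPKM, below all controls. Neither was called there, and BMP7 and TMEM100 overlapped the controls. The ID1 mean was 118 FPKM with ETV1 sgRNA and 119 in the controls. How these levels relate was not tested.

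**Figure D5:**
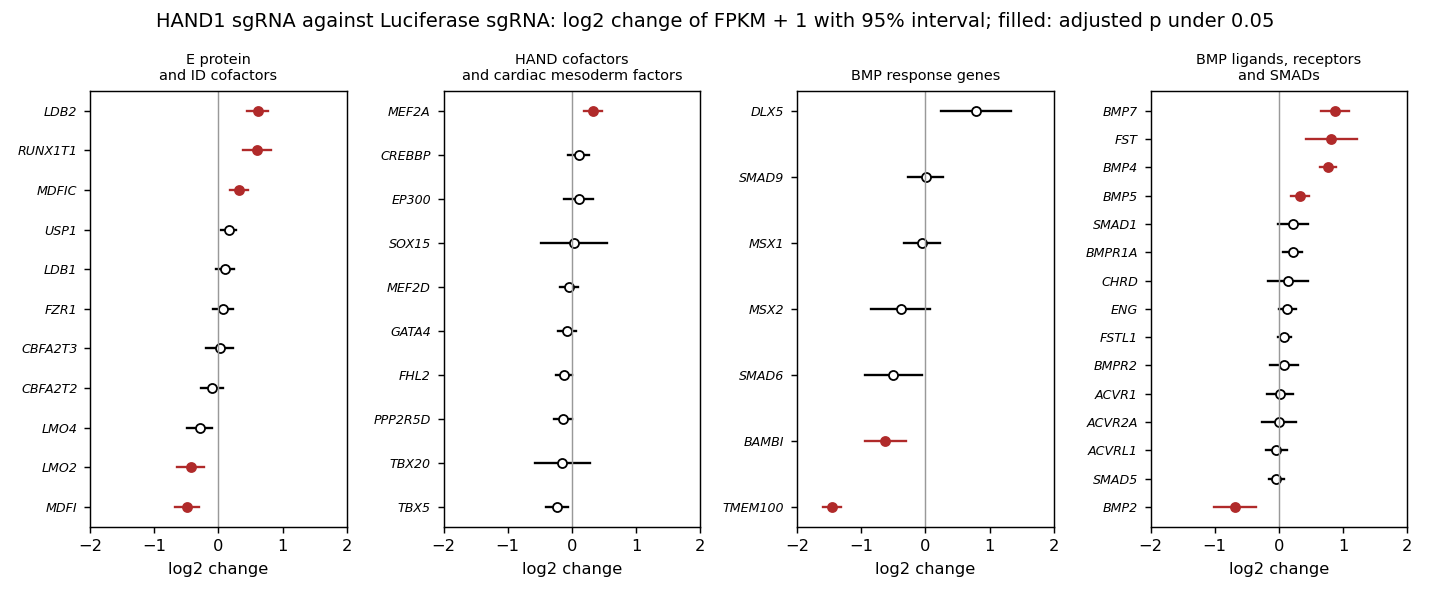
Change of log2(FPKM + 1) (x axis) with HAND1 sgRNA against Luciferase sgRNA for the tested genes (y axis) of 4 lists, with 95% intervals from limma; filled red points have an adjusted p under 0.05. TMEM100 at −1.45 is far below the other BMP response genes, while BMP7 and BMP4 lie at 0.87 and 0.76.

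The genes most like HAND1 over the 9 libraries, by Pearson r of log2(FPKM + 1) among 1934 tested genes whose mean was 5 FPKM or more and whose range was at least 0.5, were PTGIS (r = 0.991), MGAT4A (0.990), CD40 (0.987), PRKCQ (0.985) and TMEM100 (0.985). PTGIS encodes prostacyclin synthase, and its mean was 64.7 FPKM in the controls, 71.2 with ETV1 sgRNA and 45.7 with HAND1 sgRNA. CD40, a receptor of the tumour necrosis factor family, was at 42.7, 43.6 and 18.8 FPKM in that order. Most unlike HAND1 were PLAT (r = −0.992), PPP2R3A (−0.991), GPR37 (−0.989), GAS1 (−0.983) and CXCL12 (−0.983). PLAT, tissue plasminogen activator, was at 2260 FPKM in the controls and 3160 FPKM with HAND1 sgRNA. The 9 points fall into groups by sgRNA and share libraries, so these values of r describe the pattern only and carry no p.

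Most like ID1 were LMO2 (r = 0.975), DHRS2 (0.966), PTTG1 (0.965), HOXA11-AS (0.959) and PKIG (0.946), and most unlike were RTTN (−0.973), MYOF (−0.969), PDE3A (−0.956), KIRREL (−0.956) and PCDH11X (−0.955). LMO2 and ID1 were both highest in Luciferase sgRNA replicate 3, whose short transcripts were high, and lowest in HAND1 sgRNA replicate 1. The part of transcript length in these values of r was not tested. For ID2 the highest r was 0.812 (SMYD2) and for ID3 0.910 (PRH1-PRR4), and the levels of ID2 and ID3 overlapped between all groups.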

How the data were processed

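The authors deposited FPKM, 1 value per gene symbol and library. The submitters' processing notes name STAR, Cufflinks and hg19 and give no versions. The annotation is not given in the sources used here, nor any scaling between libraries. Values under 1e-06 were read as 0.

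Tests covered the 11348 of 23610 genes whose mean over the 9 libraries reached 1 FPKM. The model was limma 3.58.1 (R 4.3.3) on log2(FPKM + 1), with sgRNA group as its term, an intensity trend, 6 residual degrees of freedom and 4.15 prior ones. P-values are two-sided, with Benjamini-Hochberg adjustment over all genes tested and a threshold of 0.05. FPKM keep no read counts, so counting error is unknown. From low values, depth relative to Luciferase sgRNA replicate 1 lay between 0.637 and 1.

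The members and the 15 gene lists were chosen with earlier results of these data known. The rule for naming takes every member, up to 4 called genes of each list by smallest adjusted p, and the 5 genes most like and most unlike HAND1, ID1, ID2 and ID3 by Pearson r. Some that it takes are left out for length. FHL2, GATA4, SMAD1, SMAD4, SMAD5, SMAD6, DLX5, ID4, FST, TWIST2, MESP1, HEY1 and the markers CD34, TUBB3, KRT18 and those at 0 fall outside the rule. They were named after their values were seen.

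Alternatives changed the pseudocount (0.1 or 5), the filter (none, or 5 FPKM), the scaling (quantile normalization, or centring on the median of genes at 10 FPKM or more), the groups fitted (only those compared) or the replicate block, or left out each library. Promoter windows are from RefSeq (GRCh38.p14) and transcript lengths from GENCODE 29 (GRCh38), matched by symbol.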

Additional observations from a re-analysis of the deposited data

How the results depend on the processing

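Of 30 results for single members, 28 kept their direction where called and their side of the threshold under all 17 alternatives. The exceptions were both calls of ID1, given above, which were lost only with a library left out. With HAND1 sgRNA against the controls and against ETV1 sgRNA, limma called between 1 and 2 members with a library left out and 2 under each other alternative. With ETV1 sgRNA it called 0 under every alternative. Over all genes, leaving out a library gave between 11 and 26 calls for ETV1 sgRNA (23 in the full fit), between 433 and 730 for HAND1 sgRNA (749), and between 271 and 583 between the sgRNAs of HAND1 and ETV1 (460). Counts fell by more than 1.5 times for ETV1 sgRNA without Luciferase sgRNA replicate 1 (13) or 2 (14), ETV1 sgRNA replicate 1 (11) or 3 (14), or HAND1 sgRNA replicate 1 (15) or 2 (15). They did so for HAND1 sgRNA against the controls without Luciferase sgRNA replicate 2 (489) or HAND1 sgRNA replicate 1 (489), 2 (483) or 3 (433). Between HAND1 and ETV1 sgRNA they did so without ETV1 sgRNA replicate 1 (295) or 2 (295) or HAND1 sgRNA replicate 1 (271), 2 (291) or 3 (273). With only the 2 groups compared, 14 genes were called for ETV1 sgRNA. With quantile normalization the HAND and Twist class sum with HAND1 sgRNA was 411 FPKM (397 as deposited). With a minimum of 5 FPKM, ID2 and ID3 were not tested.

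Whether the replicate numbers pair the libraries is not told. Correlations of same-numbered libraries' deviations from their group means lay between −0.146 and 0.138. For differently numbered libraries they lay between −0.126 and 0.196. With 3 libraries per group these values show no sign of pairing but cannot settle it. With the replicate block, limma called 16, 632 and 364 genes in the 3 comparisons and 0, 2 and 2 members. Of 47 calls of other list genes, 27 were kept under every alternative that tested the gene.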
